A study of Mus musculus with 21 samples.

Results

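Insulin and IGF1 signalling through PI3K to the FOXO factors is the main hormonal route by which feeding reaches a cell. RNA of this route was followed through 9 genes in IgA+ PCs, the IgA-secreting plasma cells found in the lamina propria of the small intestine. The genes were *Igf1r*, *Insr*, *Irs1*, *Irs2*, *Pik3ca*, *Pik3r1*, *Akt1*, *Foxo1* and *Foxo3*, picked by name from the 53801 genes of the deposited count table, and each name matched 1 row. CD138+ IgA+ PCs were sort-purified from 21 C57BL/6 mice, 1 library per mouse, at ZT0 or ZT12, where ZT is zeitgeber time, in hours after lights on. All mice carried *Arntl* fl/fl, in which the gene encoding the clock factor Bmal1 is floxed. The controls (Mb1Cre-/- x Arntlfl/fl) numbered 6 at ZT0 and 6 at ZT12, and the knockout mice (Mb1Cre+/- x Arntlfl/fl) numbered 4 at ZT0 and 5 at ZT12. Cre is expressed from the *Mb1* locus, the gene *Cd79a*, so that deletion starts early in the B cell lineage and 1 *Cd79a* allele is lost. The ages of the mice are not given in the labels, and genotype was taken from the sample titles because the genotype entry of 8 of the 9 knockout samples reads as control.

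When insulin or IGF1 binds its receptor tyrosine kinase, the adaptors IRS1 and IRS2 are phosphorylated and bring class IA PI3K to the membrane, a complex of a catalytic subunit such as p110alpha (*Pik3ca*) and a regulatory subunit such as p85alpha (*Pik3r1*). The lipid made by PI3K recruits the kinase AKT1, which phosphorylates FOXO1 and FOXO3 and keeps them out of the nucleus. When the signal falls, nuclear FOXO factors raise genes of cell cycle arrest, stress defence and apoptosis, and in many tissues the receptors and *Irs2* themselves. In B lineage cells PI3K and FOXO1 also act below the antigen receptor and in class switching, and long-lived antibody-secreting cells depend on PI3K-linked survival signals. RNA levels do not show phosphorylation or location of these proteins.

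Each mouse gave between 14471018 and 22785835 counted reads. Levels are given as CPM of the counts after edgeR's TMM scaling (TMM CPM), and levels of different genes are compared per kilobase of the gene length in the file, except that each marker list is given with the gene that adds most CPM to its sum. Immunoglobulin genes took 51.5% to 63.6% of the counts of a mouse. Their share was over 58% in 4 libraries, control ZT12 replicates 2, 4 and 5 and knockout ZT0 replicate 3, which stand apart from the other 17, and members' differences that rest on them are given with and without them. The sorted cells had the markers of their label: *Igha*, the IgA heavy chain, averaged 304433 CPM, *Xbp1*, the secretory factor of plasma cells, 2197 CPM and *Prdm1*, the plasma cell repressor Blimp-1, 279.3 CPM. The mature B cell markers *Ms4a1* (CD20) and *Cr2* (CD21) averaged 1.45 and 1.43 CPM. *Cd79a* was 505 ± 71.1 and 485 ± 71.4 CPM (mean ± SD) in controls at ZT0 and ZT12 (n = 6 each) and 219 ± 47.2 and 214 ± 29.0 CPM in knockout mice (n = 4 and 5), without overlap between genotypes. It was lower in knockout mice at both times (log2 fold change -1.21 ± 0.15 (SE) and -1.18 ± 0.14, edgeR quasi-likelihood test, adjusted p = 9.08e-05 and 2.87e-05). *Arntl*, counted over its whole length and so also outside the floxed part, was 7.80 ± 0.53 CPM in controls at ZT0, 4.54 ± 0.55 in controls at ZT12, and 4.87 ± 1.08 (ZT0) and 3.89 ± 0.70 (ZT12) in knockout mice. Its difference between genotypes did not pass the test at either time (-0.68 ± 0.17 at ZT0, adjusted p = 0.926, and -0.23 ± 0.16 at ZT12, adjusted p = 0.678). The labels were therefore checked here by *Cd79a* and not by *Arntl*. By RT-PCR the study found *Arntl* efficiently deleted in IgA+ PCs of this cross, and its RNA-seq showed disturbed timing of clock genes.

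Per kilobase the 8 members tested spanned more than an order of magnitude, with the adaptor *Irs2* at the top and both receptors at the bottom. *Irs2* averaged 23.5 ± 3.71 CPM per kilobase (SD over 21 mice), above 94.7% of all genes tested. *Akt1* followed with 11.1 ± 1.15, *Foxo3* with 8.89 ± 1.63, *Foxo1* with 7.97 ± 1.58, *Pik3ca* with 6.47 ± 1.00 and *Pik3r1* with 3.34 ± 0.70 CPM per kilobase. The receptors *Igf1r* and *Insr* were at 0.645 ± 0.297 and 0.441 ± 0.113 CPM per kilobase, above 46% and 40.9% of the genes tested. In this order the neighbours from *Akt1* to *Pik3ca* differed by less than the sum of their SDs, as did both receptors, whereas every mouse had *Irs2* above *Akt1*, *Pik3ca* above *Pik3r1* and *Pik3r1* above *Igf1r*.

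Both adaptors bind the same receptors, but almost all IRS RNA here was *Irs2*. *Irs1* had 1 count in all, in control ZT12 replicate 3, and 0 in the other 20 libraries, where a count of 0 allows up to 3 counts or 0.134 to 0.240 CPM per library. *Irs2* had 52100 counts, a ratio of counts of 52100 to 1 with exact 95% limits of 9351 and 2057880 that cover counting error only. Per gene length the ratio was 75344 to 1, with limits of 13522 and 2976001. *Irs1* was the 1 member of 9 that did not reach the total of 10 counts required for testing. *Gm9747*, on the opposite strand, shares 2822 exon bases with *Irs1* and had 0 counts, and *9530052E02Rik*, on the opposite strand of *Irs2* with 162 shared bases, had 71 counts. *Gm20402*, antisense to *Foxo1* with 674 shared bases, had 0 counts.

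The promoters of this pair are shown because Bmal1 with CLOCK binds the E-box CACGTG, and among the members' promoters only these held it. RefSeq promoters were at hand for 8 of the 9 members, in 10 windows of 250 bases before a start site (GRCm38.p6), and *Insr* was not matched. The palindrome CACGTG reads the same on both strands and is found in 6.02% of 32817 such windows. It lies 115 bases before the start of *Irs1* and 44 bases before that of *Irs2*, in both within the 10-base run GTCACGTGTT. Of the other motifs searched on both strands, CACGTT (3.85% of windows) and TTATGTAA (0.817%) were in no member window, and GTAAACA, the FOXO motif (3.16%), was in 1 window, 161 bases before a start of *Akt1*. The windows are given 5′ to 3′ with the E-box in capitals, *Irs1* from chr1:82291440-82291689 and *Irs2* from chr8:11008930-11009179, both on the minus strand.
Irs1: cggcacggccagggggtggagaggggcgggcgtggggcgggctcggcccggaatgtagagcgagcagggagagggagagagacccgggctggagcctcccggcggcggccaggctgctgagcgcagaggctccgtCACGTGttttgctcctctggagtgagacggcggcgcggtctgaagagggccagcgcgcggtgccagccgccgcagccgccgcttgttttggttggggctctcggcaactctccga
Irs2: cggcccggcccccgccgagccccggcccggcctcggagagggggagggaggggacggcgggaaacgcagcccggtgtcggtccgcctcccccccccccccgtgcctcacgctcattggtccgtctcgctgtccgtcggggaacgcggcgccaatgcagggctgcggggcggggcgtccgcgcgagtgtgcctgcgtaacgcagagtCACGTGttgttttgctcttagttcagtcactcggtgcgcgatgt
With the same E-box run in both windows, *Irs2* RNA was abundant and *Irs1* RNA was at its counting floor. A match of letters does not show that a factor binds there.

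*Irs2* differed little between groups. In controls it ran from 122 to 173 CPM with a median of 151 at ZT0, and from 107 to 187 with a median of 150 at ZT12. The 4 knockout mice at ZT0 were at 182, 150, 143 and 121 CPM, and the 5 at ZT12 at 163, 189, 120, 121 and 129 CPM. All 4 groups overlapped. The log2 fold change from ZT0 to ZT12 was -0.01 ± 0.13 (SE) in controls and -0.05 ± 0.15 in knockout mice, and knockout minus control was -0.01 ± 0.15 at ZT0 and -0.04 ± 0.14 at ZT12 (adjusted p from 0.952 to 1). *Irs2* lies on chromosome 8 (GRCm38, 10984681 to 11008458) and *Irs1* on chromosome 1 (82233101 to 82291416).

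The first comparison asked whether RNA of the route differed between lights on and lights off in control mice. *Igf1r*, the IGF1 receptor (chromosome 7, 67952827 to 68233668, plus strand), was higher at ZT12, while *Pik3r1*, *Foxo1* and *Foxo3* were lower, and none of these passed the test. Of the 8 members tested, 0 were called at an adjusted p under 0.05, where 350 of all 20256 genes were (1.73%). The exception by tool was DESeq2, which called *Igf1r* alone among the members (0.98 ± 0.30, adjusted p = 0.022) and 1052 of the 12381 genes to which it gave an adjusted p (8.5%). At an unadjusted p under 0.05 the members were *Igf1r*, higher, and *Pik3r1* and *Foxo1*, lower, where 18.1% of all genes passed. The median log2 fold change of the 8 members was -0.20, against 0.006 over all genes tested, and without the 4 libraries over 58% immunoglobulin it was -0.028, against -0.0065.

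*Igf1r* ran from 4.65 to 11.2 CPM with a median of 7.08 in controls at ZT0, and from 4.43 to 24.2 with a median of 14.3 at ZT12. At ZT12 5 of 6 mice lay above all 6 mice of ZT0, and replicate 5, at 4.43 CPM, lay below them all. The mean was 7.50 ± 2.47 against 14.6 ± 6.55 CPM (log2 fold change 0.96 ± 0.33, adjusted p = 0.142). The gene is measured with 61 to 393 counts per mouse, so its counting error is larger than that of *Irs2* with 1466 to 3617.

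In edgeR's test *Igf1r* was called when replicate 5 was left out. Without it the log2 fold change was 1.14 ± 0.27 (adjusted p = 0.0458), in a fit that called 0.901% of all genes. Leaving out any other library gave 0.75 or more with no call. The same mouse had the highest sum of the 12 epithelial markers, 891 CPM, where the other controls at ZT12 had 72.6 to 216 CPM. It also had an immunoglobulin share of 59.1%. With a covariate for epithelial marker level, fitted over all mice, the change of *Igf1r* was 1.29 (adjusted p = 0.113). The epithelial list averaged 86.6 ± 47.8 CPM in controls at ZT0 and 253 ± 317 at ZT12, with 8 of 12 markers higher at an unadjusted p under 0.05 (18.1% of all genes) and 0 called. None of the 12 was at 0 over all mice, *Epcam* added most (67.2 CPM). The log2 fold changes of the 12 ran from 0.54 for *Epcam* to 4.93 for *Fabp1* and 5.04 for *Apoa4*, enterocyte genes that averaged 0.857 and 0.716 CPM, with a median of 2.66. In bulk samples a gene's level in the sorted cells and the make-up of the sort cannot be told apart.

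The sexes are not labelled, and *Xist*, the RNA of the inactive X chromosome, split the libraries cleanly into 10 with 329 CPM or more and 11 with 3.51 CPM or less. Control ZT0 and control ZT12 each held 3 of either kind. At ZT0 *Igf1r* was 7.73 to 11.2 CPM in the 3 *Xist*-high mice and 4.65 to 6.42 in the 3 *Xist*-low mice, whereas at ZT12 it was 4.43 to 15.0 and 12.0 to 24.2 CPM. With the *Xist* level as a covariate the change was 0.95 (adjusted p = 0.172). That covariate is additive and cannot describe a time change that differs with *Xist*, which was not tested. In *Xist*-high knockout mice *Igf1r* was at 9.14 to 16.5 CPM at ZT0 and 6.50 to 9.06 at ZT12 (n = 2 each). In *Xist*-low knockout mice it was at 7.36 to 8.35 CPM (n = 2) and 9.72 to 15.8 CPM (n = 3).

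*Insr*, the insulin receptor (chromosome 8, 3122061 to 3279617, minus strand), ran from 4.26 to 8.78 CPM with a median of 6.33 in controls at ZT0 and from 3.71 to 6.95 with a median of 5.81 at ZT12. The values of both times overlapped in 5 of 6 mice, and the log2 fold change was -0.19 ± 0.21 (adjusted p = 0.677). The difference in change between both receptors was not tested.

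**Figure D1:**
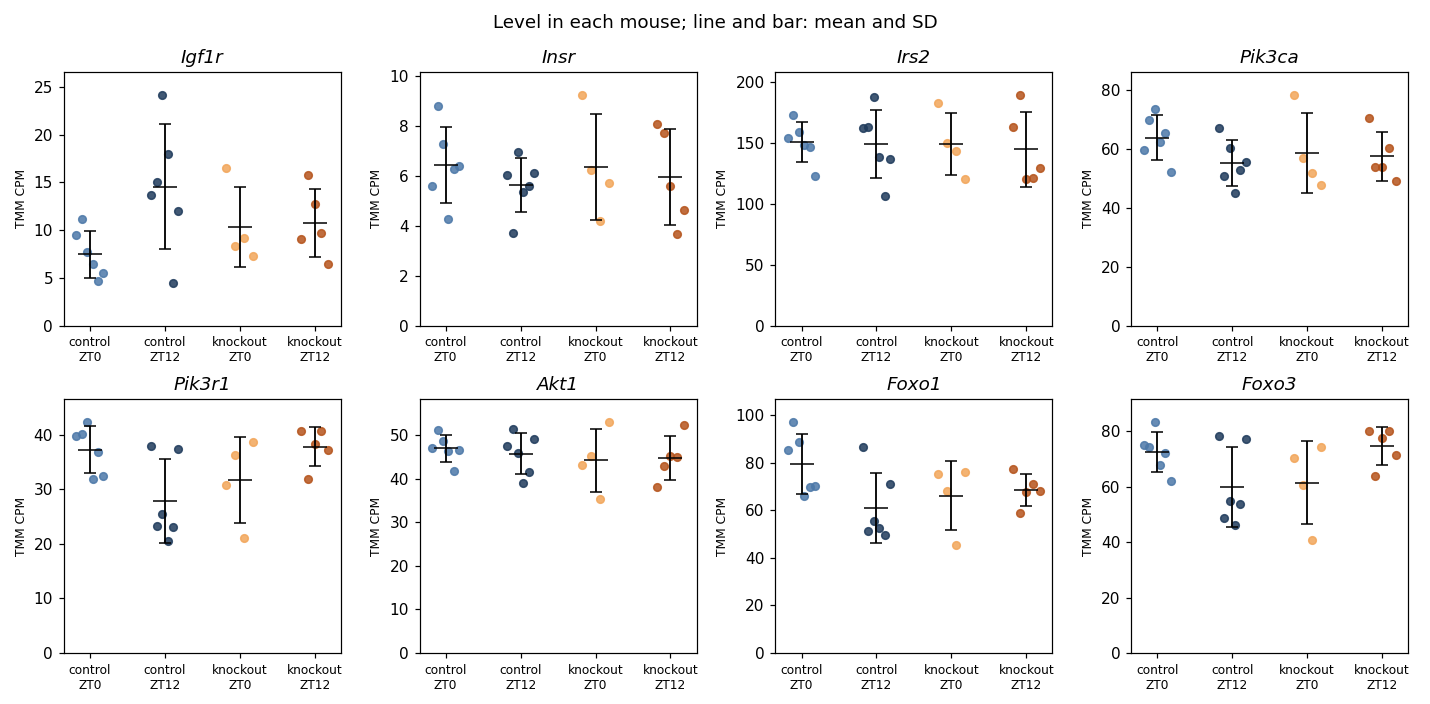
Level of the 8 members tested in each of 21 mice (TMM CPM, linear axes from 0), by genotype and time; points are mice, the line and bar are mean and SD. *Igf1r* in controls at ZT12 is high in 5 mice and lowest of all in 1 (4.43 CPM), and *Pik3r1*, *Foxo1* and *Foxo3* are each low in the same 4 controls at ZT12 and in 1 knockout mouse at ZT0.

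Among the members inside the cell, *Pik3r1* (chromosome 13, 101680563 to 101768217, minus strand), the regulatory subunit that holds and stabilises p110, ran from 31.8 to 42.3 CPM with a median of 38.3 in controls at ZT0 and from 20.5 to 37.9 with a median of 24.3 at ZT12. *Foxo1* (chromosome 3, 52268336 to 52353221, plus strand) ran from 66.0 to 97.0 CPM with a median of 77.8 and from 49.4 to 86.5 with a median of 54.1. *Foxo3* (chromosome 10, 42181841 to 42276755, minus strand) ran from 62.2 to 83.3 CPM with a median of 73.3 and from 46.2 to 78.4 with a median of 54.3. For each of these genes the same 4 mice at ZT12, replicates 2, 3, 4 and 5, lay below every mouse at ZT0, and replicates 1 and 6 lay among them. The log2 fold changes were -0.41 ± 0.15 for *Pik3r1* (adjusted p = 0.156), -0.38 ± 0.14 for *Foxo1* (adjusted p = 0.159) and -0.27 ± 0.14 for *Foxo3* (adjusted p = 0.291).

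For *Pik3r1* and *Foxo1* the call changed with 1 mouse too. Without control ZT12 replicate 1, which was high for all of them, *Pik3r1* (-0.52, adjusted p = 0.0371) and *Foxo1* (-0.51, adjusted p = 0.0249) were called, as were 4.7% of all genes in that fit, and *Foxo3* was not (-0.37, adjusted p = 0.109). Without the 4 libraries over 58% immunoglobulin the changes shrank to -0.14 for *Pik3r1*, -0.16 for *Foxo1* and -0.04 for *Foxo3*, while that of *Igf1r* was 1.15 (adjusted p from 0.311 to 0.952). With the immunoglobulin share as a covariate they were -0.11, -0.11 and 0.01, and *Igf1r* 1.05. With the epithelial marker level as a covariate they were -0.29, -0.26 and -0.16 (adjusted p = 0.411, 0.429 and 0.661). Control ZT12 replicate 3 was low for all of them (25.5, 55.3 and 54.8 CPM) at an immunoglobulin share of 53.3%.

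*Pik3ca* (chromosome 3, 32397671 to 32468486) and *Akt1* (chromosome 12, 112653821 to 112674884) moved less. *Pik3ca* ran from 52.1 to 73.4 CPM with a median of 63.7 at ZT0 and from 44.9 to 67.0 with a median of 54.1 at ZT12 (-0.21 ± 0.12, adjusted p = 0.370). *Akt1* ran from 41.8 to 51.3 CPM and from 39.0 to 51.4 CPM (-0.04 ± 0.10, adjusted p = 0.879). The times overlapped for both genes.

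In knockout mice the same comparison gave 0 members called, as it did genes of any kind (0% of 20256), and 0 by DESeq2, which called 47 genes in all. No member had an unadjusted p under 0.05, against 8.01% of all genes. *Igf1r* was at 16.5, 8.35, 9.14 and 7.36 CPM at ZT0 and at 9.06, 15.8, 12.7, 9.72 and 6.50 CPM at ZT12. The times overlapped, and the log2 fold change over *Xist*-high and *Xist*-low mice together was 0.06 ± 0.38 (adjusted p = 0.988). The 12 epithelial markers rose here too, from a sum of 76.6 ± 7.07 CPM at ZT0 to 165 ± 157 CPM at ZT12. Their median log2 fold change was 2.11, with 0 at an unadjusted p under 0.05. Replicate 5 at ZT12 had the highest sum of the knockout mice, 439 CPM, and their lowest *Igf1r*. *Pik3r1* was at 30.7, 36.3, 21.1 and 38.7 CPM at ZT0 and at 40.6, 31.9, 38.4, 40.7 and 37.3 CPM at ZT12 (0.25 ± 0.18, adjusted p = 0.732). *Foxo1* was at 75.2, 68.0, 45.4 and 76.2 CPM and at 77.4, 58.8, 67.6, 71.2 and 68.1 CPM (0.05 ± 0.16, adjusted p = 0.961). *Foxo3* was at 70.3, 60.7, 40.8 and 74.4 CPM and at 80.1, 64.0, 77.7, 80.1 and 71.5 CPM (0.28 ± 0.16, adjusted p = 0.660). Replicate 3 at ZT0 was the lowest knockout mouse for each of these 3 genes. Without it the changes were 0.10 for *Pik3r1*, -0.09 for *Foxo1* and 0.13 for *Foxo3*. *Insr* (-0.10 ± 0.25), *Pik3ca* (-0.03 ± 0.14) and *Akt1* (0.02 ± 0.11) did not pass the test either.

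**Figure D2:**
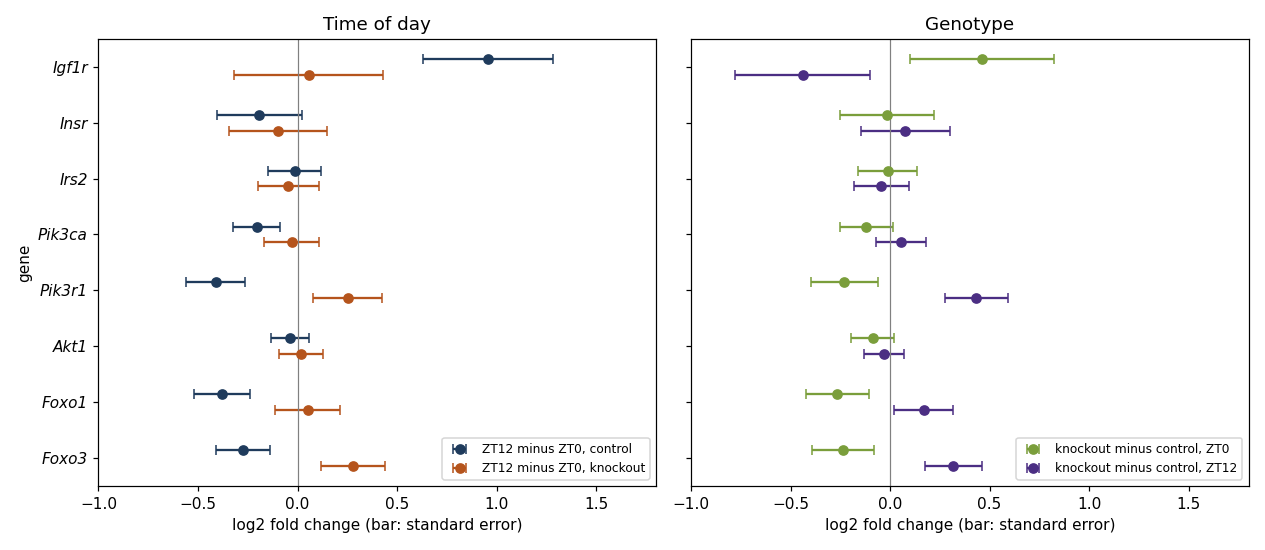
Fitted log2 fold changes (x axis) of the 8 members tested with their standard errors (bars), for time of day within each genotype (left) and for genotype at each time (right). *Igf1r* in controls (0.96) is farthest from 0, and *Pik3r1* and *Foxo3* lie below 0 in controls and above 0 in knockout mice, with no member called in any comparison by edgeR.

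Whether the time difference itself depended on genotype was tested as an interaction, the change in knockout mice minus the change in controls. It called 0 of 8 members and 0% of all genes, with 4 genes but no member called by DESeq2. *Pik3r1* (0.66 ± 0.23, adjusted p = 0.442) and *Foxo3* (0.55 ± 0.21, adjusted p = 0.442) had an unadjusted p under 0.05, as did 10.8% of all genes. *Foxo1* was at 0.43 ± 0.22 (adjusted p = 0.465) and *Igf1r* at -0.90 ± 0.50 (adjusted p = 0.50). Without the 4 libraries over 58% immunoglobulin the interaction was 0.24 for *Pik3r1*, 0.16 for *Foxo3*, 0.07 for *Foxo1* and -1.15 for *Igf1r*. The time difference of *Igf1r* in controls is thus not shown to be absent in knockout mice.

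Knockout mice were also set against controls at each time. At ZT0, 0 members were called, against 2 genes in all (0.00987%), with 0 members at an unadjusted p under 0.05 (4.9% of all genes) and 0 by DESeq2. The members' log2 fold changes ran from -0.26 ± 0.16 for *Foxo1* to 0.46 ± 0.36 for *Igf1r*. Without the 4 libraries over 58% immunoglobulin these 2 were -0.12 and 0.52. At ZT12, 0 members were called, against 3 genes in all (0.0148%), and 0 by DESeq2. *Pik3r1* (27.9 ± 7.72 CPM in controls and 37.8 ± 3.58 in knockout mice, 0.43 ± 0.16, adjusted p = 0.562) and *Foxo3* (59.9 ± 14.3 and 74.7 ± 6.93 CPM, 0.32 ± 0.14, adjusted p = 0.562) had an unadjusted p under 0.05, as did 8.83% of all genes. *Igf1r* was at -0.44 ± 0.34. Without the 4 libraries over 58% immunoglobulin the differences at ZT12 were 0.17 for *Pik3r1*, 0.09 for *Foxo3* and -0.63 for *Igf1r*. In every comparison each member's groups overlapped, so none was among the genes whose groups did not overlap. These were 0.745% higher and 0.859% lower at ZT12 in controls, 1.22% and 1.41% in knockout mice, and in knockout mice against controls 0.504% and 0.474% at ZT0 and 0.242% and 0.138% at ZT12.

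*Pik3r1*, *Foxo1* and *Foxo3* varied together from mouse to mouse without the 4 libraries that stand apart, also after subtraction of the group means. Over the other 17 mice Pearson's r was 0.853 for *Pik3r1* with *Foxo3* (Spearman's rho 0.877, permutation p = 2e-05 and 1e-05), 0.715 for *Pik3r1* with *Foxo1* (rho 0.725, p = 0.00095 and 0.0014) and 0.685 for *Foxo1* with *Foxo3* (rho 0.672, p = 0.0025 and 0.0041). The permutation p-values are two-sided from 100000 resamples, and 1e-05 is the smallest they can give. Adjusted over the 36 relations computed these were 0.00072, 0.017 and 0.022 for r and 0.00036, 0.017 and 0.037 for rho. Without the 2 mice farthest from the median r was 0.856, 0.578 and 0.553, and after subtraction of the group means it was 0.858, 0.815 and 0.815. In controls at ZT0 *Pik3r1* was at 39.7 to 42.3 CPM in *Xist*-high mice and 31.8 to 36.9 in *Xist*-low mice. *Foxo1* (85.3 to 97.0 against 66.0 to 70.3) and *Foxo3* (74.4 to 83.3 against 62.2 to 72.1) were split alike. In the other groups the ranges overlapped, except that *Pik3r1* was lower in *Xist*-high knockout mice at ZT0 (21.1 to 30.7 against 36.3 to 38.7 CPM). Subtraction of group means leaves such a split in, and its part in r was not tested. *Insr* with *Irs2* was the only other relation with an adjusted p under 0.05 (r 0.692, rho 0.728, permutation p = 0.0021 and 0.0014, adjusted 0.022 and 0.017, r 0.686 without the farthest 2). *Igf1r* with *Irs2* was at r 0.577 (rho 0.537, permutation p = 0.015 and 0.028, adjusted 0.091 and 0.15). Libraries scaled together share their scaling factor, so part of any such relation can come from it, which was not tested. Mice were permuted across groups, so each p-value compares a pair with independence only. How many pairs among all genes reach such r was not counted, and r after subtraction of the group means was not tested.

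Within the 17 mice, whose immunoglobulin share ran only from 51.5% to 55.7%, no relation of these genes with the share passed the test. Pearson's r was 0.257 for *Pik3r1*, -0.142 for *Foxo1* and 0.403 for *Foxo3* (rho 0.169, -0.132 and 0.348, permutation p from 0.11 to 0.61, adjusted from 0.30 to 0.73). After subtraction of the group means r was 0.435, 0.285 and 0.535. For *Igf1r* with the share r was 0.462 and rho 0.588 (permutation p = 0.062 and 0.015, adjusted 0.25 and 0.11), with r 0.243 after that subtraction. The 4 libraries over 58% were at 20.5 to 23.2 CPM for *Pik3r1*, where the other 17 were at 25.5 CPM or more.

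**Figure D3:**
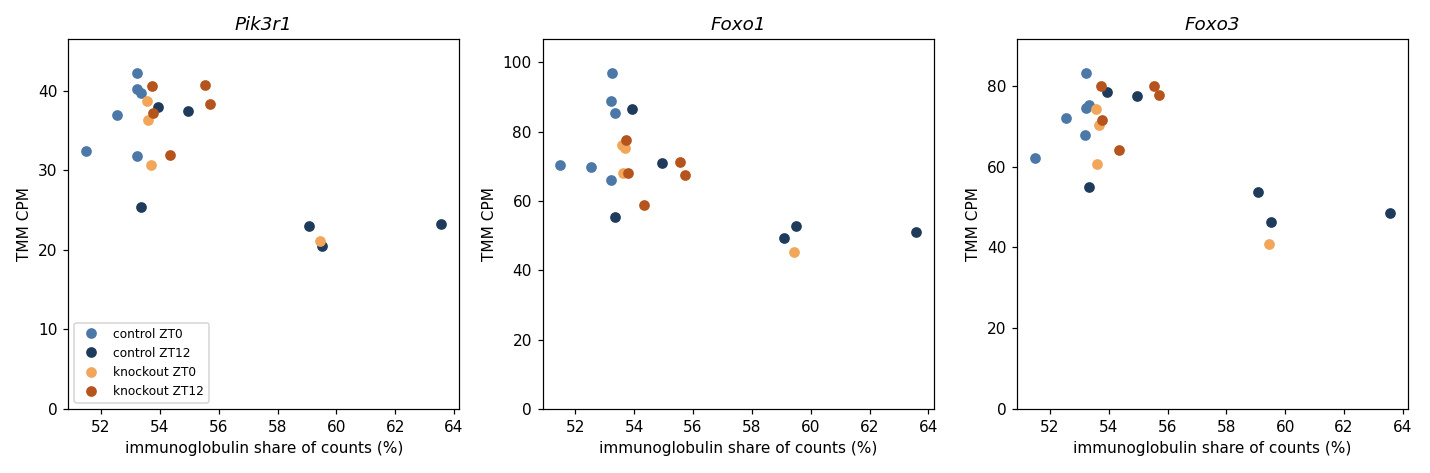
Level of *Pik3r1*, *Foxo1* and *Foxo3* (TMM CPM) against the share of counts on immunoglobulin genes (percent), 1 point per mouse, by group. The 4 libraries over 58% and control ZT12 replicate 3 (53.3%) are low for all of them, and within the 17 libraries under 58% r with the share lay between -0.142 and 0.403.

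The genes whose level over the 21 mice was most like that of *Igf1r*, among 11634 genes with a mean of at least 1 CPM, were *Leprot* (Pearson's r 0.845), which adjoins the leptin receptor gene and encodes a trafficking protein, *Colq* (0.798) and *Ighg3* (0.779), an IgG3 heavy chain gene. For *Irs2* they were *Foxp1* (0.874), a forkhead factor of B cell development, *Spag6* (0.839) and the antisense gene *9130221H12Rik* (0.832). For *Foxo1* they were *Ripor2* (0.956), *Ube2h* (0.948), a ubiquitin-conjugating enzyme, and *Dcaf12* (0.945). They were taken from the top of all genes, so their r is a description with no test. Of these 9 genes none was called in any comparison, and in controls *Leprot* was at 0.50 (adjusted p = 0.121) and *Ripor2* at -0.59 (adjusted p = 0.120). That these share the signs of *Igf1r* and *Foxo1* follows from their choice by r over the same libraries.

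The rest of the route was read from lists of 80 other genes, of which 67 reached 10 counts. None of the 67 was called in any of the 5 comparisons. In controls 8 were higher and 6 lower at ZT12 at an unadjusted p under 0.05 (18.1% of all genes), and in knockout mice 1 and 1 (8.01% of all genes).

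The ligands were hardly made by the sorted cells. *Igf2*, *Ins1* and *Ins2* had 0 counts in all 21 libraries, and *Igf1* averaged 0.238 CPM with 78 counts in all (1.99 ± 0.94 in controls, adjusted p = 0.263). Of 12 ligands and binding proteins 7 were tested, with *Igfbp7* at 0.666 CPM and *Igfals* at 0.126 CPM. *Igf2r*, the scavenger receptor for IGF2 and carrier of lysosomal enzymes, was at 8.84 CPM per kilobase, far above *Igf1r* and *Insr* (-0.22 ± 0.13 in controls, adjusted p = 0.369). Of 11 adaptors and other receptors tested, *Sh2b1*, *Grb2* and *Shc1* were at 24.2, 21.3 and 12.3 CPM per kilobase. *Gab1* (0.113 CPM) and *Grb2* (-0.17 ± 0.08, adjusted p = 0.235) had an unadjusted p under 0.05 in controls, and *Sos2* was at -0.23 ± 0.13.

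The PI3K genes with the highest levels were not those of the receptor-linked p110alpha. *Pik3cg*, the p110gamma catalytic subunit used below G protein-coupled receptors, was at 30.4 CPM per kilobase, its regulatory partner *Pik3r5* (p101) at 28.5, and *Pik3cd*, the p110delta subunit of lymphocytes, at 17.1, against 6.47 for *Pik3ca* and 0.441 for *Pik3cb*. *Pik3r6*, the other p110gamma partner, was 0.63 lower on the log2 scale at ZT12 in controls (SE 0.24, adjusted p = 0.180), *Pik3cg* was at -0.24 ± 0.12 (adjusted p = 0.314) and *Pik3cb* at -0.43 ± 0.26. Without the 4 libraries over 58% immunoglobulin *Pik3r6* was at -0.44 and *Pik3cg* at -0.04. The median over the 8 genes of this list, which holds the adaptor *Pik3ap1* beside the subunits, was -0.25 in controls and 0.068 in knockout mice. Over all genes it was 0.006 in each. The median of the list was not computed without the 4 libraries.

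Of the 9 phosphatases and other brakes, *Inpp5d* (SHIP1), which removes the 5-phosphate of the PI3K product, was at 13.7 CPM per kilobase. Its log2 fold change in controls was -0.33 ± 0.12 (adjusted p = 0.151), with *Ptpn1* at -0.20 ± 0.11 and *Inppl1* at -0.19 ± 0.12. Of the 7 other kinases, *Gsk3b*, an AKT substrate, was at -0.43 ± 0.17 in controls and 0.29 ± 0.20 in knockout mice (adjusted p = 0.199 and 0.735). *Pdpk1*, which activates AKT, was at -0.22 ± 0.11 and *Sgk1*, a kinase related to AKT, at -0.29 ± 0.18 in controls. Without the 4 libraries *Inpp5d* was at -0.08 in controls, and *Gsk3b* at -0.13 in controls and 0.13 in knockout mice. *Foxo4* (7.97 CPM per kilobase) stood level with *Foxo1*, and *Foxo6* had 21 counts in all.

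Of 28 FOXO target genes 23 were tested, and in controls 6 were higher and 2 lower at ZT12 at an unadjusted p under 0.05 (18.1% of all genes), with 0 called. *Bcl2l11*, encoding the pro-apoptotic BIM, averaged 223 CPM (1.03 ± 0.33 in controls, adjusted p = 0.119, and -0.04 ± 0.38 in knockout mice, adjusted p = 0.994). *Cdkn1a*, the cell cycle inhibitor p21, was at 0.61 ± 0.20 (adjusted p = 0.110) and 0.04 ± 0.23, and *Sod2*, the mitochondrial superoxide dismutase, at 0.33 ± 0.13 (adjusted p = 0.167) and -0.16 ± 0.14. The 4 libraries over 58% immunoglobulin held the 4 highest *Sod2* values, 70.8 to 79.5 CPM, where the other 17 were at 59.0 CPM or less. Without them *Sod2* was at 0.01 in controls and -0.04 in knockout mice, *Bcl2l11* at 0.71 and 0.03, and *Cdkn1a* at 0.54 and 0.06. The median over the 23 genes was 0.082 in controls and 0.05 in knockout mice, against 0.006 over all genes.

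Among the 8 plasma cell markers, 3 were higher and 1 lower at ZT12 in controls at an unadjusted p under 0.05 (18.1% of all genes), with 0 called. They included *Igha* (0.36 ± 0.12, adjusted p = 0.120), *Xbp1* (0.28 ± 0.10, adjusted p = 0.143) and *Prdm1* (-0.30 ± 0.10, adjusted p = 0.126). The markers of other cells were read in the same control comparison. *Pecam1* (CD31) was the only gene of the marker lists called (-0.51 ± 0.14, adjusted p = 0.0494), and the 8 stromal and endothelial markers summed to 43.3 ± 2.01 CPM at ZT0 and 30.6 ± 5.41 at ZT12, of which *Pecam1* added most (33.4 CPM), with *Pdgfra* (0.0365 CPM) and *Col3a1* (0.438 CPM) near 0. The sum thus followed *Pecam1*, and without the 4 libraries over 58% immunoglobulin *Pecam1* was at -0.42 (adjusted p = 0.497). Of the 8 markers 3 were lower at an unadjusted p under 0.05 (18.1% of all genes). These were *Pecam1*, *Pdgfra* (-3.94 ± 1.25) and *Col3a1* (-1.83 ± 0.79), and the median of the 8 was -0.91. *Cdh5*, the endothelial cadherin (2.53 CPM, 0.03 ± 0.34), and *Pdgfrb*, a pericyte receptor (0.119 CPM, 0.53 ± 0.98), named after their values were seen, were the 2 of the 8 above 0. The 8 T cell markers summed to 18.7 ± 3.69 and 18.2 ± 3.78 CPM (*Cd4* added most, 15.5 CPM, with *Cd8a*, *Cd3g* and *Trac* at 0.213, 0.375 and 0.980), the 7 myeloid markers to 57.6 ± 18.1 and 65.2 ± 30.9 CPM (*Csf1r* added most, 15.6 CPM) and the 8 other B cell markers to 27.8 ± 2.42 and 24.6 ± 6.34 CPM. Of these 3 lists *Cd14*, a monocyte receptor, *Cd8a* and *Cr2* had an unadjusted p under 0.05 (18.1% of all genes). Their log2 fold changes were 0.58 ± 0.26, -2.35 ± 1.00 and -0.93 ± 0.44 (adjusted p = 0.236, 0.21 and 0.26). *Cd68* was at 0.12 ± 0.20, *Trac* at -0.54 ± 0.40 and *Bach2*, a repressor of plasma cell fate, at -0.30 ± 0.34.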

How the data were processed

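RNA was measured by poly-A RNA-seq (paired reads, NEBNext Ultra) in IgA+ PCs of 21 mice. The authors deposited raw read counts per gene with no normalization, and the aligner, counter and strand setting are not given in the sources used here, so genes that share exon bases with a member are named. DESeq2 is named in the submitters' processing notes. Gene positions equal those of GENCODE M21 (GRCm38) for 52055 of 53620 genes matched and for all 9 members.

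Genes with a total under 10 counts were removed, as in the study's methods, leaving 20256. edgeR 4.0.16 (R 4.3.3) was fitted to the 4 group means with TMM factors and robust quasi-likelihood, and p-values were Benjamini-Hochberg adjusted over all genes tested, with a threshold of 0.05. DESeq2 1.42.0 was an alternative. Other alternatives were other scalings and filters, a threshold of 0.01, own groups only, the replicate number as a block, immunoglobulin share or epithelial level as a covariate, a length trend removed and each library left out. *Xist* as a covariate and removal of the 4 libraries over 58% immunoglobulin were added after the data were seen. The test was tested on simulated data: at 6 against 6 mice it recovered 176 of 200 genes changed by 2-fold (19700 genes), with 5 false calls among 181. The changed genes were drawn above a minimum mean level. Noise was simulated independently per gene, with no difference in immunoglobulin share or epithelial level, so these rates do not carry over to the real data. Within a group, all 46 pairs of libraries differed by more than sampling noise (chi-square per gene at least 29.5).

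Named were the 9 members, *Igf1*, *Igf2*, *Ins1*, *Ins2*, *Igf2r*, *Arntl* and *Cd79a*, of every other list the genes called and the 3 with the smallest p in controls, and the 3 genes most like *Igf1r*, *Irs2* and *Foxo1* by r of log2 CPM (prior count 2). Genes named for their level per length were picked with their values in view. Some single genes are not reported here. The members, lists and tests were chosen with earlier results of these data known.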

Additional observations from a re-analysis of the deposited data

How the results depend on the processing

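No member lost a call under any alternative, since none was called. Of 1360 alternative values for the 40 log2 fold changes of members, 1257 kept direction and side of the threshold, 4 passed it and 99 changed sign, all of results whose main value had a size of at most 0.275. The 4 were *Igf1r* in controls with DESeq2 and without control ZT12 replicate 5, and *Pik3r1* and *Foxo1* in controls without control ZT12 replicate 1, so the members called in controls were 1 with DESeq2 and 0 to 2 with a library left out. The 32 group means of members moved by less than their SD with DESeq2's size factors. Library size alone shifted the median of all genes by -0.205 for time in controls, 0.177 for the interaction and 0.128 for genotype at ZT12.

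Genes called for time in controls (350) were 1052 with DESeq2, 38 in a fit of the control groups only, 0 with the immunoglobulin share (1648 at an unadjusted p under 0.05), 42 with the epithelial level, 14 at a threshold of 0.01 and 12 without the 4 libraries over 58%. With a library left out they ranged from 31 without control ZT0 replicate 2 to 944 without control ZT12 replicate 1. For time in knockout mice (0) they were 47 with DESeq2, 1 with no filter, 1 with the immunoglobulin share, 3 without the 4 libraries and 0 to 1 with a library left out. For the interaction (0) they were 4, 1 with the length trend removed and 0 to 1. For genotype at ZT0 (2) they were 5 with DESeq2 and 4 with the length trend removed, and at ZT12 (3) they were 8 with DESeq2. Of the other genes named, *Pecam1* lost its call (-0.42) and *Bcl2l11* changed sign for time in knockout mice (0.030) without the 4 libraries. The causes were not tested.

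The log2 fold changes that changed sign were *Irs2* for time in controls with DESeq2 (0.010) and with its size factors (0.0099). With the *Xist* level as a covariate it was *Pik3ca* 0.0027 for time in knockout mice. With the epithelial level as a covariate they were *Irs2* 0.087 for time in controls, *Irs2* 0.024 and *Pik3ca* 0.022 for time in knockout mice and *Irs2* 0.0032 for genotype at ZT0. Removal of the length trend gave *Irs2* 0.075 for time in controls, *Igf1r* -0.030 for time in knockout mice, *Insr* -0.14 and *Pik3ca* -0.0085 for the interaction, *Insr* 0.062 and *Irs2* 0.033 for genotype at ZT0 and *Insr* -0.082 and *Pik3ca* -0.062 for genotype at ZT12. The immunoglobulin share as a covariate gave *Insr* 0.18, *Irs2* 0.065, *Akt1* 0.025 and *Foxo3* 0.010 for time in controls, *Insr* -0.30 and *Akt1* -0.011 for the interaction, *Insr* 0.15 and *Irs2* 0.026 for genotype at ZT0 and *Insr* -0.15 and *Pik3ca* -0.029 for genotype at ZT12. Scaling by library size only gave *Akt1* -0.019 for time in knockout mice, *Irs2* 0.14 for the interaction and *Irs2* 0.077 and *Akt1* 0.10 for genotype at ZT12. Leaving out the 4 libraries over 58% gave *Irs2* 0.11 and *Akt1* 0.019 for time in controls, *Igf1r* -0.0016, *Akt1* -0.080 and *Foxo1* -0.096 for time in knockout mice, *Insr* -0.24, *Pik3ca* -0.029 and *Akt1* -0.098 for the interaction, *Insr* 0.14, *Irs2* 0.010 and *Akt1* 0.011 for genotype at ZT0 and *Insr* -0.10, *Pik3ca* -0.088 and *Foxo1* -0.050 for genotype at ZT12.
With a library left out those that changed sign ranged over *Irs2* -0.089 to 0.066 and *Akt1* -0.073 to 0.0035 for time in controls, *Igf1r* -0.12 to 0.37, *Insr* -0.25 to 0.13, *Irs2* -0.16 to 0.060, *Pik3ca* -0.13 to 0.14, *Akt1* -0.075 to 0.10 and *Foxo1* -0.092 to 0.11 for time in knockout mice, *Insr* -0.059 to 0.32, *Irs2* -0.15 to 0.073 and *Akt1* -0.037 to 0.14 for the interaction, *Insr* -0.25 to 0.14, *Irs2* -0.12 to 0.086 and *Akt1* -0.18 to 0.0055 for genotype at ZT0 and *Insr* -0.066 to 0.21, *Irs2* -0.16 to 0.026, *Pik3ca* -0.034 to 0.11 and *Akt1* -0.100 to 0.015 for genotype at ZT12.

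Replicate numbers are shared between groups but did not pair the mice: of 28 same-numbered pairs 7 had a correlation over 0.1 (mean -0.014, others 0.004), and 4 of 21 libraries matched their own number best. With the replicate block 183 genes were called for time in controls, *Igf1r* was at 0.91 (adjusted p = 0.0616), and the sign changed to *Irs2* 0.0078 and *Pik3ca* 0.0081 for time in knockout mice and *Irs2* 0.031 for the interaction. The block changed no member's call.

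Depth limits *Irs1*, *Igf2*, *Ins1* and *Ins2*, which cannot be told from 0, and *Igf1r* and *Insr* at 57 to 393 counts per mouse.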

Other observations

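*Klf2*, a FOXO1 target and factor of lymphocyte quiescence and trafficking, was chosen after its values were seen. It was highest in the 4 libraries over 58% immunoglobulin, where *Foxo1* was low. It was lowest, at 98.1 CPM, in knockout ZT12 replicate 2, where *Foxo1* was at 58.8 CPM. In controls *Klf2* ran from 125 to 142 CPM with a median of 132 at ZT0, and from 124 to 207 with a median of 182 at ZT12. In knockout mice it was at 136, 113, 269 and 157 CPM at ZT0 and at 115, 98.1, 130, 116 and 124 CPM at ZT12. The 4 libraries over 58% immunoglobulin, in which *Foxo1* was at 45.4 to 52.8 CPM, held the 4 highest *Klf2* values, 269, 207, 205 and 197 CPM. Its interaction was -0.94 ± 0.23 (SE, edgeR quasi-likelihood test, adjusted p = 0.442), with a log2 fold change of 0.40 ± 0.15 in controls (adjusted p = 0.172) and -0.53 ± 0.18 in knockout mice (adjusted p = 0.546). Without those 4 libraries the values were -0.38 (adjusted p = 0.9999), 0.16 (adjusted p = 0.712) and -0.22 (adjusted p = 0.659). None of the 32 member-by-group sets of mice held a value far from the others by Dixon's criterion.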
